A study of Arabidopsis thaliana with 4 samples.

Results

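EIN3 and RTE1 encode proteins at opposite ends of the ethylene pathway in Arabidopsis thaliana, and their transcripts were followed here in roots kept at low or normal oxygen. They were taken as the 2 genes AT3G20770 (EIN3) and AT2G26070 (RTE1), among 13356 genes that the array's probe table names singly. Each gene was read by the probe sets assigned to it alone, and by the one with the highest mean over the 4 arrays if there were several. Both genes had 1 such probe set, with EIN3 on chromosome 3 and RTE1 on chromosome 2, so no choice between probe sets was needed. The low oxygen group held 2 samples of Col-0 seedlings, a laboratory accession, kept for 5 hours in canisters that had been flushed for 20 minutes with gas of 0.1% oxygen in nitrogen and then sealed. The normal oxygen group held 2 samples of the same accession kept for 5 hours in canisters that were left unsealed. All seedlings were 3 weeks old and had spent 24 hours in liquid MS medium with 3% sucrose before the treatment, and the canisters were wrapped in foil. Each sample was the roots of 5 seedlings pooled from a dish, read on 1 Affymetrix array. Flushing, sealing and oxygen changed together, so their effects cannot be told apart, and no measurement of ethylene gas is used here.

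Ethylene is a gaseous hormone that builds up around flooded roots because water slows its escape. In its absence, receptors in the endoplasmic reticulum membrane keep the kinase CTR1 active, which holds the membrane protein EIN2 in check, and the F-box proteins EBF1 and EBF2 send EIN3 to degradation. When ethylene binds, the receptors fall silent, EIN2 is cut and signals to the nucleus, and EIN3 protein accumulates and switches on response genes. EIN3 is thus a transcription factor that activates the response, and it is known to be controlled mainly through the stability of its protein, which arrays do not measure. RTE1 is a membrane protein that promotes signalling by the receptor ETR1 and so restrains ethylene responses.

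The 2 transcripts differed in opposite directions between low and normal oxygen. RTE1 fell 1.42-fold at low oxygen, and EIN3 stood 1.24-fold higher at low oxygen in a difference that did not pass the test. The values are log2 RMA expression values, a scale on which 1 unit is a 2-fold difference. RMA in its usual form brings the arrays to a like distribution, so that each change is relative to the other transcripts. The settings used here are not given, and the array medians lay between 6.33 and 6.36. In tissue samples, fewer cells of a type and less RNA per cell cannot be told apart.

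RTE1 had log2 values of 8.10 and 8.11 in low oxygen replicates 1 and 2, against 8.57 and 8.65 in normal oxygen replicates 1 and 2. Both low oxygen samples lay below both normal oxygen samples, with a gap of 0.46 between the nearest of them. That gap was wider than the 0.01 between the low oxygen replicates and the 0.08 between the normal oxygen replicates. The means were 8.10 ± 0.01 at low oxygen and 8.61 ± 0.06 at normal oxygen (SD, n = 2 each). In limma's test over all probe sets RTE1 fell by 0.51 on the log2 scale (SE 0.10, 95% interval -0.74 to -0.28, Benjamini-Hochberg adjusted p = 0.0070). As a ratio of low to normal oxygen this was 0.704, with an interval of 0.600 to 0.826.

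EIN3 had log2 values of 10.14 and 9.96 in low oxygen replicates 1 and 2, against 9.76 and 9.71 in normal oxygen replicates 1 and 2. Both low oxygen samples lay above both normal oxygen samples, but the gap of 0.20 between the groups was about as wide as the 0.19 between the low oxygen replicates. The normal oxygen replicates were 0.05 apart. The means were 10.05 ± 0.13 at low oxygen and 9.73 ± 0.03 at normal oxygen (SD, n = 2 each). The log2 change was 0.31 (SE 0.11, 95% interval 0.06 to 0.57), with a p of 0.0236 before adjustment in limma's fit and 0.0660 after it, above the threshold of 0.05. The ratio of low to normal oxygen was 1.24, with an interval of 1.04 to 1.49, so these arrays neither called a change of EIN3 nor showed that it was steady. At the SE of EIN3 a log2 change of 0.34 in either direction would have passed, and at the SE of RTE1 a change of 0.31.

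**Figure D1:**
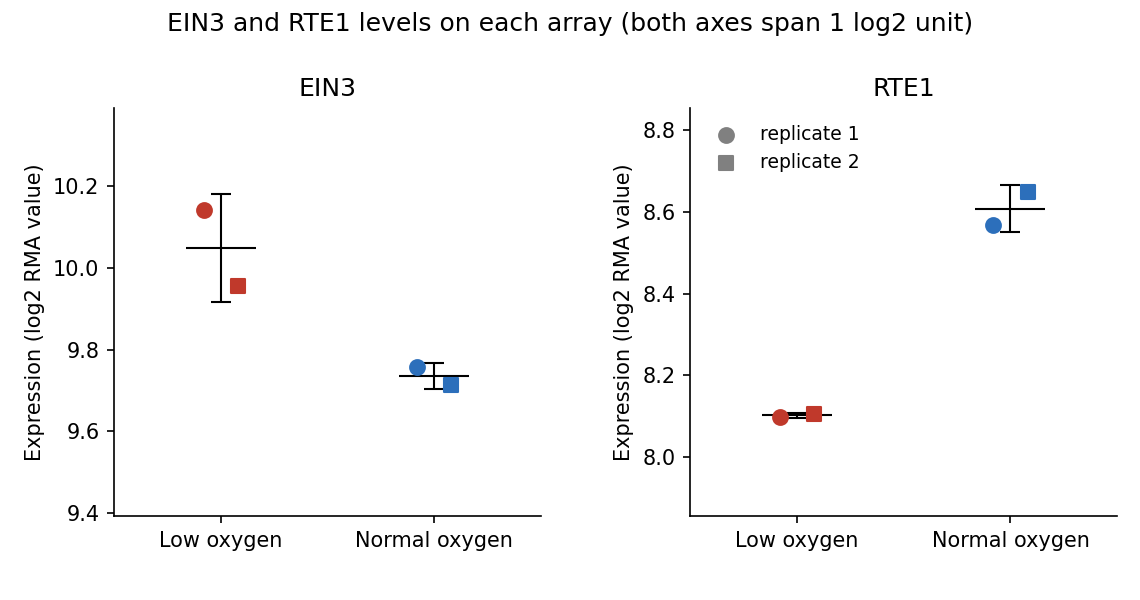
Log2 RMA expression values of EIN3 (left) and RTE1 (right) on each array, with low oxygen left of normal oxygen in each panel; points are single samples, horizontal lines are group means and bars are 1 SD over 2 samples. RTE1 sits near 8.10 in both low oxygen samples, below 8.57 and 8.65 at normal oxygen, and EIN3 at 10.14 and 9.96 lies above 9.76 and 9.71.

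Changes of this kind were common on the arrays. Of 22746 probe sets, 33.4% passed at an adjusted p under 0.05, 15.8% as higher and 17.6% as lower at low oxygen, and 1 call among 2 genes is too small a count to set apart from that background. Low and normal oxygen samples were fully separated, as for both members, in 64.5% of probe sets, and 41.7% had an unadjusted p under 0.05. The absolute change of RTE1 was exceeded by 25.5% of probe sets and that of EIN3 by 38.4%. Signals of different probe sets depend on their probes as well as on the transcript, so they do not rank transcripts, but probe sets of like signal give a closer background. Within 0.5 log2 units of the mean of RTE1, 48.6% of 2880 probe sets passed, and 38.1% had a larger absolute change than RTE1. Within 0.5 log2 units of the mean of EIN3, 45.3% of 1326 probe sets passed, and 50.2% had a larger absolute change than EIN3. The size of neither change was therefore unusual for its signal. The median absolute log2 change was 0.32 at the signal of EIN3, and 0.36 at that of RTE1, whose own change was larger than this median.

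**Figure D2:**
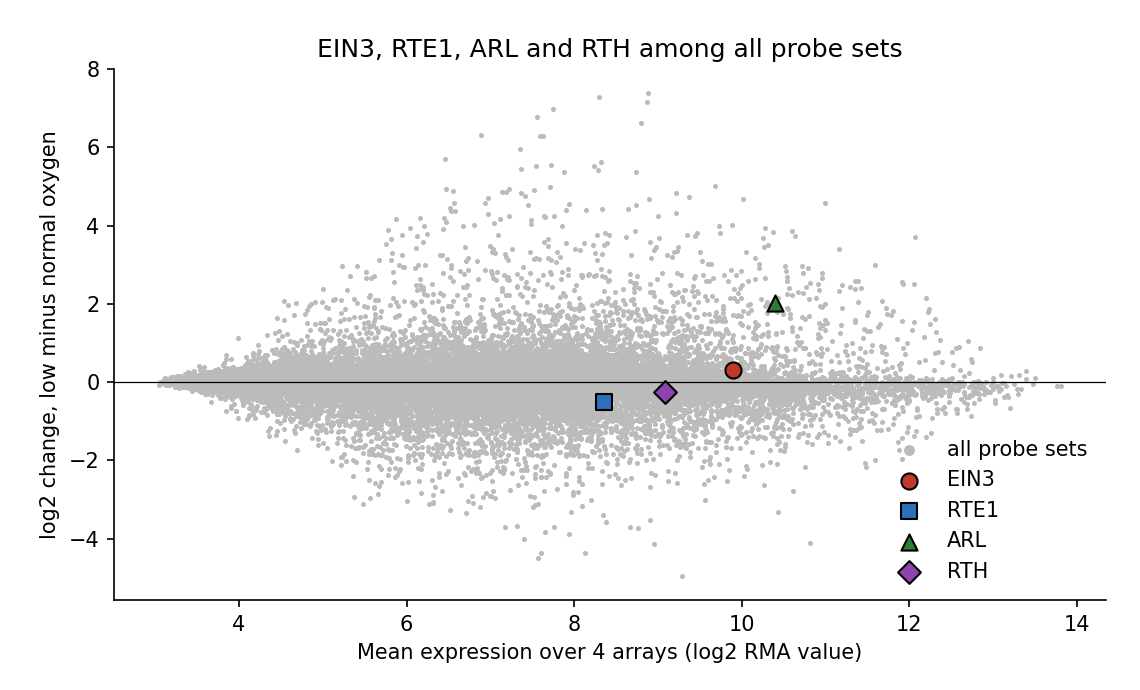
Log2 change, low minus normal oxygen, against the mean log2 RMA expression value over the 4 arrays for 22746 probe sets (grey), with EIN3, RTE1, ARL and RTH marked. EIN3 (0.31), RTE1 (-0.51) and RTH (-0.24) lie inside the main cloud, and ARL (2.03) lies above it, among the sparser points.

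The replicate spread of both members was near or under that of the array as a whole. The residual SD was 0.04 for RTE1 and 0.10 for EIN3, against a median of 0.12 and 0.11 among probe sets of their signal and a typical value of 0.11 in limma's prior. With 2 residual degrees of freedom, limma drew both toward that prior, which raised the SE of both.

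Whether the 2 genes moved apart was put to an exact test. The difference between the log2 levels of EIN3 and RTE1 was taken within each array and compared between the groups, where it was 0.82 higher at low oxygen (SE over arrays 0.12). The exact permutation test gave p = 0.333 (2-sided, n = 2 each). Because both genes were already fully separated between the groups in opposite directions, this outcome was fixed by their values. That p is the smallest that the 6 relabellings of 4 arrays allow, so the design cannot place this difference under 0.05. Scaling whole arrays up or down leaves this difference as it is.

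The EIN3 result depended on how the arrays were scaled, and the RTE1 call did not. With each array centred on its median, EIN3 had a log2 change of 0.33 and passed (limma adjusted p = 0.0462). The 18 probe sets of the hybridisation controls, bacterial and phage transcripts added before hybridisation as is standard for these arrays, were all higher at low oxygen, by a median log2 change of 0.25. With the arrays scaled to these controls the median over all probe sets became -0.25, and the calls became 1634 higher and 5016 lower, against 3594 higher and 3999 lower before. EIN3 then had a log2 change of 0.06 (SE 0.22 against 0.11 before, limma adjusted p = 0.824), which is 0.32 above that shifted median. RTE1 fell by 0.76 in the same fit (limma adjusted p = 0.0025), 0.51 below the shifted median. Leaving out low oxygen replicate 1, the sample highest in EIN3, gave an EIN3 change of 0.22 (adjusted p = 0.287). Leaving out low oxygen replicate 2 gave 0.41 (adjusted p = 0.0747), so neither passed. RTE1 passed without any single array, with log2 changes between -0.55 and -0.47.

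**Figure D3:**
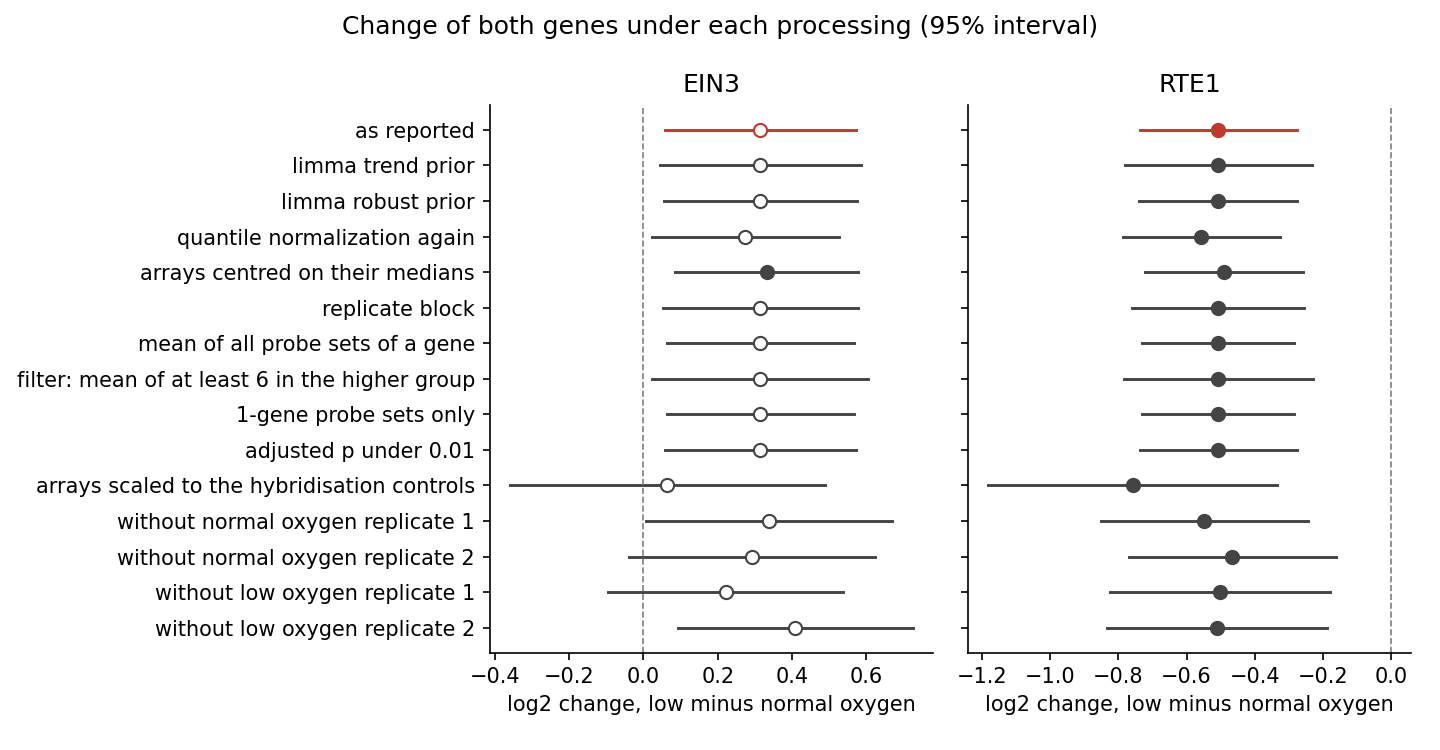
Log2 change, low minus normal oxygen, of EIN3 (left) and RTE1 (right) under each processing tried; points are estimates, lines are 95% intervals, and filled points passed the adjusted p of that setting. EIN3 runs from 0.06 to 0.41 and is filled in 1 row, the one with arrays centred on their medians, and RTE1 runs from -0.76 to -0.47 and is filled in every row drawn.

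Among other regulators that act on ethylene receptors, RTH, the closest relative of RTE1 in Arabidopsis, had log2 values of 8.95 and 8.98 at low oxygen, against 9.22 and 9.19 at normal oxygen. Its groups did not overlap, which also held for RTE1 and for 64.5% of all probe sets. The RTH change of -0.24 (SE 0.09, 95% interval -0.47 to -0.01) did not pass limma's test (adjusted p = 0.101). Whether RTE1 and RTH differed in their change was not tested. ARL, an ARGOS-family membrane protein whose relatives dampen ethylene responses when overproduced, had values of 11.30 and 11.53 at low oxygen, against 9.05 and 9.72 at normal oxygen. ARL rose 4.08-fold (log2 change 2.03, SE 0.22, limma adjusted p = 5.5e-04), opposite in direction to RTE1. The receptors themselves, the cytochrome b5 proteins known to bind RTE1, CTR1 and EIN2 had no probe set naming them singly and were not analysed here.

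Within the family of EIN3, EIL4 and EIL5 could be read beside it, and EIL1, its closest partner, was not analysed here. The values of EIL4 were 3.90 and 3.63 at low oxygen and 3.85 and 3.73 at normal oxygen. EIL5 had 3.71 and 3.64 at low oxygen, against 3.62 and 3.65 at normal oxygen. Both lay near the lowest value on the arrays, 2.95, their groups overlapped, and their changes of -0.03 and 0.04 did not pass (limma adjusted p = 0.916 and 0.807). A low value does not show that these genes are silent, since RMA values carry no detection call.

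Of the steps around EIN3, ACO3 encodes an ACC oxidase, an enzyme of the last and oxygen-consuming step of ethylene synthesis. Its values were 9.68 and 9.54 at low oxygen, against 9.54 and 8.88 at normal oxygen, a log2 change of 0.40 that did not pass (SE 0.21, limma adjusted p = 0.211). The normal oxygen replicates were 0.66 apart, against 0.13 between the low oxygen replicates. Without normal oxygen replicate 1 the change was 0.73, and without normal oxygen replicate 2 it was 0.06. ETP2, an F-box protein that marks EIN2 for degradation, had 6.65 and 6.83 at low oxygen, against 6.46 and 7.02 at normal oxygen, with a change of 0.00 (SE 0.19, limma adjusted p = 1.00). PDF1.2, a defensin gene induced by ethylene together with jasmonate, had 6.48 and 4.91 at low oxygen, against 5.20 and 4.99 at normal oxygen. Its change of 0.60 (SE 0.44, limma adjusted p = 0.384) rested on low oxygen replicate 1, without which it was -0.19. Without low oxygen replicate 2 it was 1.38.

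In all, 9 of 91 genes listed for ethylene synthesis, perception, signalling and response were measured by name, and 3 of the 9 had a mean under 6. Of the 9, ARL rose, RTE1 fell and 7 did not pass, which is 22.2% called against 30.6% of all genes measured by name. Their median absolute log2 change was 0.31, the value of EIN3 itself, against 0.18 over all genes measured by name. Without EIN3 and RTE1, 1 of 7 passed (14.3%), and the median absolute log2 change was 0.24. Of the 13356 genes measured by name, 6808 had a mean under 6, so these medians compare genes of unlike signal.

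**Figure D4:**
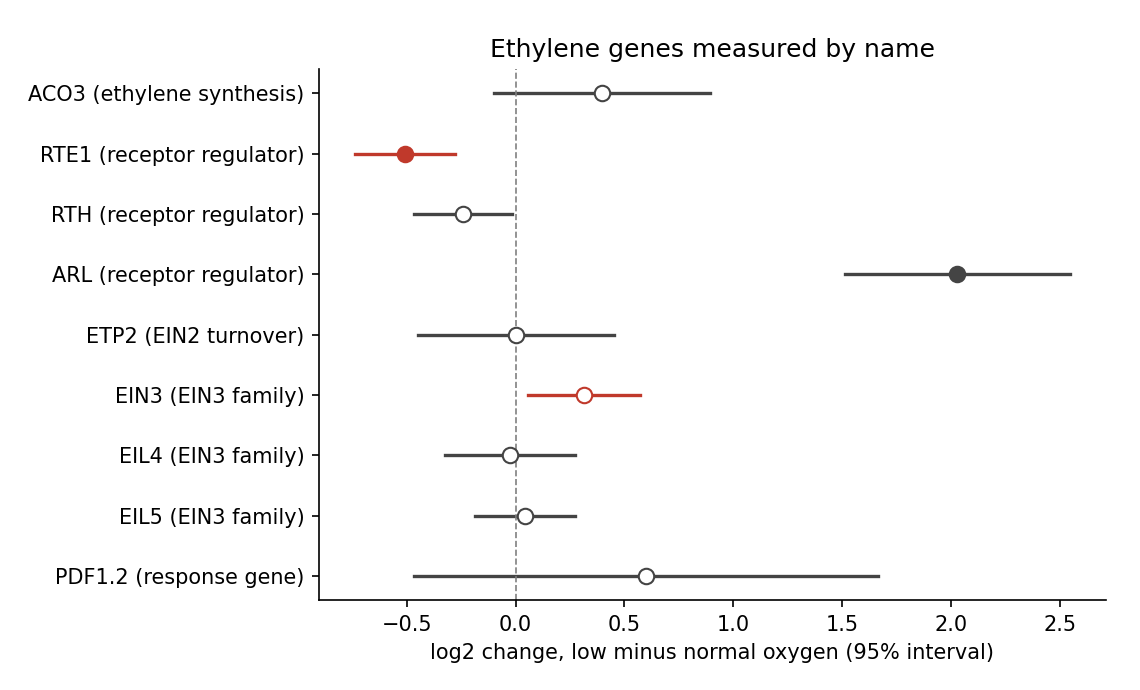
Log2 change, low minus normal oxygen, of the 9 listed ethylene genes that were measured by name, in the order of the pathway; lines are 95% intervals, filled points passed limma's test at an adjusted p under 0.05, and EIN3 and RTE1 are in red. RTE1 (-0.51) and ARL (2.03) are the filled points, and the widest interval is that of PDF1.2.

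The values of RTE1 and EIN3 can be set beside those of the nearest genes measured by name. Of these, AT3G20760 alone was adjacent to a member, and the nearest to RTE1 lay 2 genes away. Of the measured genes nearest to EIN3, with 2 on each side, log2 changes lay between -0.05 and 0.11 and none of the 4 passed limma's test. AT3G20760, the gene next to EIN3, had a change of -0.03. Its mean of 4.63 and the 4.14 of AT3G20730 were low, with 2.95 the lowest value on the arrays. Their small changes therefore do not show that these genes were steady. AT3G20790 and AT3G20800 had means of 8.60 and 8.95. Near RTE1, AT2G26110 fell by 0.40 (limma adjusted p = 0.0321), 4 genes away. The other 3 measured neighbours did not pass, with changes of 0.14 for AT2G26050, 0.19 for AT2G26120 and 0.42 for PDF1.2b. The means of AT2G26050 and AT2G26120 were low as well, at 3.96 and 4.02. The PDF1.2b value rested on low oxygen replicate 1, without which it was -0.11, and without low oxygen replicate 2 it was 0.95. The call of AT2G26110 ended without normal oxygen replicate 1 (-0.30, adjusted p = 0.141), without low oxygen replicate 1 (-0.36, adjusted p = 0.151), without low oxygen replicate 2 (-0.44, adjusted p = 0.0950) and with the replicate block (adjusted p = 0.0615).

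Many genes had patterns like those of the 2 members over these 4 arrays. Likeness was measured as the root mean square difference of log2 values after each probe set was centred on its own mean. The nearest probe sets have changes and replicate spreads close to those of the member by this choice, so their changes are no separate result. Of 13511 other probe sets named for 1 gene, 586 lay within 0.1 of RTE1 and 1083 within 0.1 of EIN3. The 5 nearest to RTE1 were ATN1, a protein kinase gene (0.007), AT3G45840 (0.011), AT5G24165 (0.014), VHA-A2, a subunit gene of the vacuolar proton pump (0.014), and UGT71C2, a glycosyltransferase gene (0.015). Their log2 changes lay between -0.53 and -0.49, beside -0.51 for RTE1. The 5 nearest to EIN3 were UBC29, a ubiquitin-conjugating enzyme gene (0.010), AT2G17410 (0.011), CCMH, a gene of mitochondrial cytochrome c assembly (0.012), AT5G12980 (0.012) and AT1G56345 (0.013). Their log2 changes lay between 0.29 and 0.34, and like EIN3 none of the 5 passed limma's test. With arrays centred on their medians, where EIN3 passed, AT2G17410, AT5G12980 and CCMH passed as well (limma adjusted p = 0.0454, 0.0350 and 0.0383). AT2G17410 and CCMH also passed after a repeated quantile normalization, and AT5G12980 with the mean of each gene's probe sets (adjusted p = 0.0494), where EIN3 did not.

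The labels of treatment and tissue were checked on the same arrays, whose values ran from 2.95 to 13.99 with medians between 6.33 and 6.36. The low oxygen samples carried the known hypoxia transcripts, with log2 changes of 7.39 for AT5G10040 and 2.53 for PDC2. Of 17 listed root markers 4 were measured by name (PYK10, EXPA7, EXPA18 and AT1G30870), and none read below 6.70 on any array. All 4 fell in limma's test, in which 17.6% of all probe sets were called lower. Their log2 changes were -0.67 for PYK10, -2.50 for EXPA7, -3.53 for EXPA18 and -3.31 for AT1G30870 (highest limma adjusted p = 0.0049). The log2 of their levels summed on the linear scale, to which PYK10 gives most, ran from 12.99 to 13.02 at low oxygen, against 14.17 to 14.24 at normal oxygen. Of 15 listed shoot markers RCA, the Rubisco activase gene, was measured, at 8.14 and 8.37 at low oxygen, against 7.11 and 6.79 at normal oxygen. RCA rose by 1.31 (limma adjusted p = 5.9e-04). The 4 measured root markers were lower at low oxygen, as RTE1 was, and their part in the RTE1 and EIN3 values was not tested.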

How the data were processed

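Biotin-labelled cRNA from 7 ug of root total RNA was hybridised to 1-colour arrays (source: the labels' protocols). The values as deposited are log2 expression values for 22810 probe sets, and RMA and limma are named without versions per the submitters' processing notes. Background correction and normalization settings and the genome build are not given in the sources used here, so no coordinates are printed.

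From these values, 64 control probe sets were left out and the other 22746 entered a limma 3.58.1 fit under R 4.3.3 (2-sided lmFit and eBayes, no block) with Benjamini-Hochberg adjustment over all of them at 0.05. There were 2 arrays per group, and the prior had 4.63 degrees of freedom. Gene names came from the probe table of the platform, in which 13513 probe sets name 1 gene, and 13436 of these matched RefSeq (TAIR10.1) by gene identifier. The members and the gene lists were chosen with earlier results of these data known. Measured list genes, the 2 measured neighbours on each side and the 5 most alike probe sets were named by rule, and AT5G10040 and PDC2 as treatment checks. Both groups use replicate numbers 1 and 2, which no label pairs, and same-numbered arrays' deviations correlated at 0.02. The test was checked on simulated data. Figures were drawn with matplotlib 3.10.9.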

Additional observations from a re-analysis of the deposited data

How the results depend on the processing

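The fall of RTE1 kept its direction and passed under all 14 alternatives, from -0.76 to -0.47 on the log2 scale, with adjusted p between 0.0025 and 0.0435. EIN3 stayed above 0 and short of the threshold under 13 of 14, with adjusted p up to 0.824 when the arrays were scaled to the hybridisation controls, an alternative chosen after seeing the data. It passed with arrays centred on their medians (0.33, adjusted p = 0.0462), a shift of the same size for every probe set. With the replicate block, adjusted p was 0.0797 for EIN3 and 0.0189 for RTE1, 2 of 9 listed genes passed, and 6939 probe sets passed. The 7593 calls over 22746 probe sets became 4119 over the 13513 probe sets of 1 gene. With the mean of each gene's probe sets, the calls became 4098 over 13356 genes. Leaving out single arrays gave 5375 to 7001 calls, on the assumption that a lone array varies as the other condition does, and 2 to 3 listed genes passed. The difference between EIN3 and RTE1 ran from 0.72 to 0.92. With 2 arrays per group the number of arrays limits every comparison, and the RMA values carry no measure of signal over background.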

Other observations

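PDF1.2b, a defensin gene that lies near RTE1, and its close relative PDF1.2 were both highest on the array of low oxygen replicate 1. PDF1.2b had log2 values of 6.36 and 5.29 in low oxygen replicates 1 and 2, against 5.59 and 5.21 in normal oxygen replicates 1 and 2. PDF1.2 had 6.48 and 4.91 at low oxygen, against 5.20 and 4.99 at normal oxygen. Neither passed limma's test (adjusted p = 0.398 for PDF1.2b and 0.384 for PDF1.2). The low oxygen replicates were 1.06 apart for PDF1.2b and 1.57 for PDF1.2, against 0.38 and 0.21 at normal oxygen. Without low oxygen replicate 2 the log2 changes were 0.95 for PDF1.2b and 1.38 for PDF1.2, each resting on 1 low oxygen array. Without low oxygen replicate 1 the changes were -0.11 and -0.19. The 2 genes are closely related in sequence, and binding of each transcript to the other's probes was not tested.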
